A study of Mus musculus with 35 samples.

Results

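The naive pluripotency factors are a group of nuclear regulators whose genes are expressed in mouse embryonic stem cells (ESCs) that resemble the inner cell mass. The 10 genes described here were chosen by name among the 26127 rows of an RPKM table (reads per kilobase of exon and per mega-read of the library). They are *Nanog*, *Klf2*, *Klf4*, *Klf5*, *Esrrb*, *Tfcp2l1*, *Tbx3*, *Prdm14*, *Zfp42* and *Tcl1*. Of these, 9 were found by their exact symbol and *Tfcp2l1* was found under its older symbol *Tcfcp2l1*. The rule uses names only. In the files' build, NCBIM37, the Krüppel-like genes lie at separate places, *Klf2* at chr8:74842932-74845555 (+ strand), *Klf4* at chr4:55540013-55545347 (− strand) and *Klf5* at chr14:99697910-99712624 (+ strand). The genes of other DNA-binding families are *Nanog* at chr6:122657507-122664651 (+ strand), *Esrrb* at chr12:87702067-87862578 (+ strand), *Tfcp2l1* at chr1:120524522-120581744 (+ strand), *Tbx3* at chr5:120120678-120134733 (+ strand), *Prdm14* at chr1:13103538-13117244 (− strand) and *Zfp42* at chr8:44380422-44392363 (− strand), and *Tcl1* lies at chr12:106454967-106460947 (− strand). Each value is over the exons of the whole gene.

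In ESCs these factors bind each other's regulatory regions together with OCT4 and SOX2, and they keep the cells from leaving the ground state. LIF acts through JAK and STAT3 on *Klf4* and *Tfcp2l1*, while GSK3 and TCF7L1 of the WNT pathway hold back *Esrrb* and *Nanog*. PRDM14 represses genes of FGF signalling and of de novo DNA methylation, and TCL1 is a cofactor of the kinase AKT rather than a DNA-binding protein.

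The study deleted *Dnmt1*, which copies CG methylation onto newly made DNA, by inducible Cre in mouse ESCs, and followed total RNA depleted of ribosomal RNA over time. By label, 17 libraries are controls, called WT here, and 17 are *Dnmt1* KO. They were taken at days 0, 1, 3, 6, 9, 11, 17 and 25, with 2 libraries per genotype and day except day 1, which had 3. The sample titles do not say whether the controls were given tamoxifen. There is 1 further library, of *Dicer* KO. All are labelled as E14 ESCs, whereas the methods describe a *Dnmt1* loxP/loxP line of another strain, grown in serum and LIF with or without feeder cells. In the KO the alleles were recombined by tamoxifen-activated Cre, so a KO library can hold undeleted cells, and the *Dicer* KO is a clone made by CRISPR in the same loxP line, with *Dnmt1* not deleted. No label says that libraries of a group came from separate cultures, so p-values measure only the spread between these libraries, which may be technical.

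*Dnmt1* itself was at 17.9 to 19.5 RPKM in the WT libraries of day 1 and at 2.86, 3.04 and 8.13 RPKM in the KO libraries, the last of these being the third. At day 25 it was at 34.8 and 31.7 RPKM in WT and at 4.4 and 4.04 RPKM in KO. At day 6 it went against the labels, with 3.22 and 3.41 RPKM in the libraries labelled WT and 20.2 and 20.4 RPKM in the libraries labelled KO. Day 6 is therefore given as labelled, and no direction is drawn from it. The libraries held 24.3 to 72.1 mega-reads, and fell into a set in which 20.2% to 22.0% of reads were on annotated genes (20 libraries, days 0, 3, 6 and 9 and the first 2 pairs of day 1) and a set in which 44.1% to 48.8% were (15 libraries, days 11, 17 and 25, the third pair of day 1 and the *Dicer* KO). RPKM levels were therefore not compared between the sets, apart from the libraries of day 1. The ESC markers *Pou5f1* (OCT4) and *Sox2* were at 45.5 to 260 RPKM and 43.7 to 84.6 RPKM over the 34 WT and *Dnmt1* KO libraries.

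The upstream sequences of 4 factors are shown first, since CG dinucleotides are the positions that DNMT1 maintains. RefSeq sequences (GRCm38.p6) were matched by symbol for 7 of the 10 genes, and not for *Klf5*, *Tbx3* and *Prdm14*. Each run below is the 250 bases before the start of the gene, read 5′ to 3′ on the gene's strand, with every CG in capitals. *Nanog*, *Tcl1* and *Zfp42* are shown as examples of factors whose RNA differed between the genotypes at days 17 and 25. *Klf2* is shown as an example of one called at day 17 and not at day 25. *Esrrb* also differed at days 17 and 25, and *Tfcp2l1* was also called at day 17 only of these days, and their windows are not shown. The *Nanog* window is chr6:122707239-122707488 on the + strand and holds 3 CG. That of *Tcl1* is chr12:105222738-105222987 on the − strand, with 7 CG. That of *Zfp42* is chr8:43307010-43307259 on the − strand, with 9 CG, and that of *Klf2* is chr8:72318812-72319061 on the + strand, with 29 CG.
Nanog: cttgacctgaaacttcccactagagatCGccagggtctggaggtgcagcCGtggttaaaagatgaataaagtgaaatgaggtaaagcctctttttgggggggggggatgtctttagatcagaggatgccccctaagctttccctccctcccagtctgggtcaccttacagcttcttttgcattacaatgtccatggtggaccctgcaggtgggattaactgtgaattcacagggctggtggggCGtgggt
Tcl1: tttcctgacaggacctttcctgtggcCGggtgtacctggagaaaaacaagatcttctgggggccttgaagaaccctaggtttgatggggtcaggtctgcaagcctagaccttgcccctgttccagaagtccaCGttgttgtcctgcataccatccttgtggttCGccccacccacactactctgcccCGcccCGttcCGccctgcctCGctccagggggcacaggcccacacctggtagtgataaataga
Zfp42: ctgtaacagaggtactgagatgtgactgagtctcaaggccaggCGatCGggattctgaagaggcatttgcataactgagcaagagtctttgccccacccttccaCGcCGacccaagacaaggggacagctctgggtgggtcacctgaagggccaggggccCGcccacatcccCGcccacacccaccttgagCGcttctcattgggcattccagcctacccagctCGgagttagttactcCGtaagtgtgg
Klf2: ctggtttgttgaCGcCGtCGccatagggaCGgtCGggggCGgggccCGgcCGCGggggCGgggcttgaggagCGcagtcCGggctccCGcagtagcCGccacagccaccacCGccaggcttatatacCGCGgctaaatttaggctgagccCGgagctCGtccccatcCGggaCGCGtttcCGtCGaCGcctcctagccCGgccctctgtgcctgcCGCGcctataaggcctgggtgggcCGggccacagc

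Over the 32851 promoters of the same table, the median number of CG in 250 bases was 6. *Klf2* and *Klf4* lay among the CG-dense promoters, with 29 and 32 CG, numbers reached by 6.78% and 4.58% of all promoters. *Tfcp2l1* had 16 CG, and *Esrrb* had 6 and 3 at its pair of annotated starts. *Nanog*, with 3 CG at the start shown and 2 at the other, had fewest. These are counts in the reference, since no methylation was measured in these libraries. The octamer core ATGCAAA, searched on both strands, was found in the windows of *Nanog*, 75 bases before the start, and *Zfp42*, 185 bases before it, in both cases as TTTGCAT. Of all promoters 4.12% held it. In *Nanog* the SOX core ACAATG (10.7% of all promoters) begins 67 bases before the start, with 1 base between it and the octamer core. The GC box GGGCGG (32.7% of all promoters) was found in the windows of *Klf2*, *Klf4*, *Zfp42* and *Tcl1*, counting either strand.

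At day 0 the RPKM levels, which are per length and so can be set side by side, put *Nanog* first at 17.5 ± 3.33 RPKM (SD, n = 2 WT libraries). *Zfp42* (REX1, a zinc finger protein widely used as a naive marker) followed at 8.74 ± 0.332 RPKM and *Esrrb*, an orphan nuclear receptor, at 6.50 ± 0.489 RPKM. *Klf4* at 4.16 RPKM overlapped *Tcl1* at 4.10 RPKM, and *Klf5*, *Tfcp2l1* and *Klf2* overlapped each other between 2.68 and 3.32 RPKM. *Tbx3* (1.3 RPKM) and *Prdm14* (0.624 RPKM) were lowest. Days 11 and 25 belong to the other set of libraries described above, so their order is set only against each other. In WT of day 11 *Nanog* led at 159 RPKM, *Klf5* was at 23.3 RPKM, *Tcl1* at 18.4 RPKM and *Prdm14* last at 2.54 RPKM. In WT of day 25 *Nanog* (31.7 RPKM) was followed by *Klf5* at 27.5 RPKM, with *Tcl1* (1.23 RPKM) and *Prdm14* (0.591 RPKM) last. In the KO of day 25 *Nanog* led at 149 RPKM, *Zfp42* was second at 27.5 RPKM and *Prdm14* again last at 2.62 RPKM, with no overlap between neighbours. All 10 genes passed the filter on low values, and the smallest number of reads behind any member in any library was 38, for *Prdm14*.

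**Figure D1:**
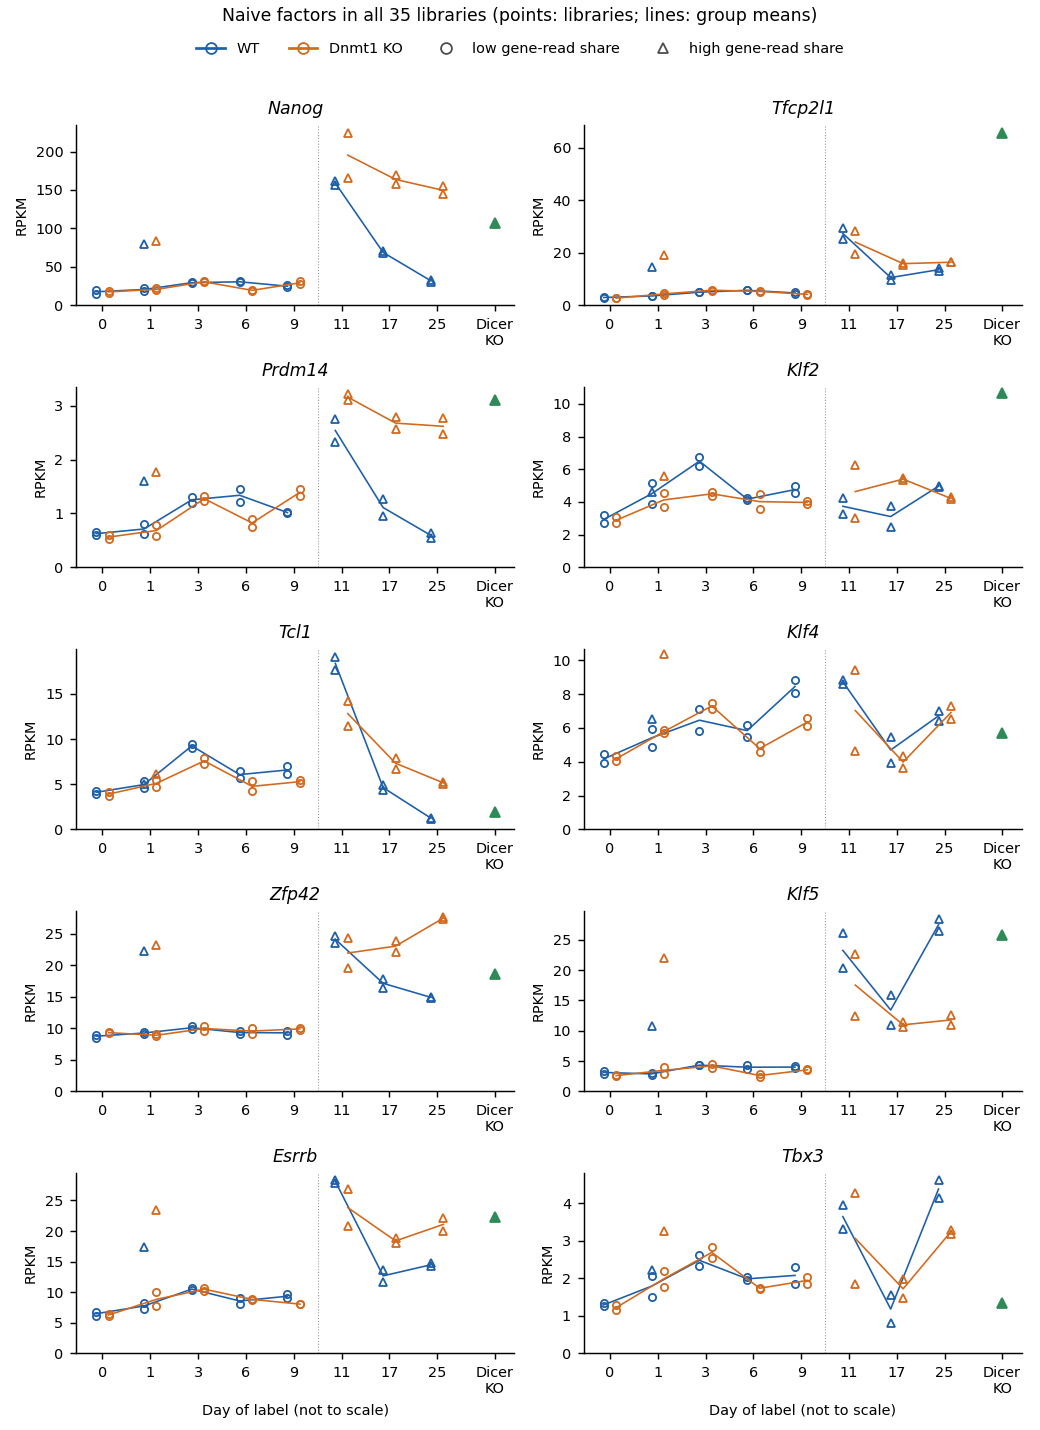
RPKM of each naive factor (y axis, linear, from 0) by labelled day (x axis, not to scale), with each library as a point, WT in blue, *Dnmt1* KO in orange and the *Dicer* KO library in green. Circles are libraries of low and triangles of high gene-read share, and lines join group means within a set without the third pair of day 1. In WT *Nanog* went from 161 and 157 RPKM at day 11 to 30.7 and 32.7 RPKM at day 25, while the KO libraries of day 25 were at 155 and 144 RPKM, and day 6 is drawn as labelled.

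The third libraries of day 1 show how far the sets of libraries stood apart for these genes. In WT, *Nanog* was at 19.1 and 21.8 RPKM in the first 2 libraries and at 79.6 RPKM in the third. The third library exceeded the mean of the first 2 by 3.76 times for *Klf5*, 4.11 times for *Tfcp2l1* and 3.89 times for *Nanog*, against a median of 2.07 times over the genes tested. *Tcl1*, *Klf2*, *Klf4* and *Tbx3* stood at 1.00, 1.02, 1.21 and 1.24 times, below that median. The KO libraries showed 6.32, 4.41 and 4.06 times for *Klf5*, *Tfcp2l1* and *Nanog*, and a median of 2.07 times. The third pair had a term of its own in the fit.

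KO and WT were compared at each day on log2(RPKM + 0.1) with limma over the 34 libraries, and a gene was called where the Benjamini-Hochberg adjusted p over all 11615 genes tested was below 0.05. Differences are KO minus WT on that scale, which understates changes of low genes such as *Prdm14*. Since these are bulk samples, fewer cells of a kind and less RNA per cell cannot be told apart. At day 0, before deletion, none of the 10 factors was called, as was none of all genes (0.0%). None of the 10 had an unadjusted p below 0.05, and voom on recovered reads called 0. At this day the 95% intervals of the KO to WT ratio ran from 0.841 to 1.19 for *Nanog* and from 0.949 to 1.19 for *Zfp42*, and most widely for *Tbx3*, from 0.647 to 1.38.

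From day 1 to day 9 few factors were called as different between the genotypes. At day 1 none was called by limma or by voom (0.146% of all genes were called), with 3 at an unadjusted p below 0.05. At day 3 none was called by either (7.4% of all genes were called higher and 3.81% lower), with 2 at an unadjusted p below 0.05. Those at day 3 were *Klf2*, a Krüppel-like zinc finger factor, with a difference of -0.52 ± 0.22 (SE), and *Tcl1*, with -0.28 ± 0.12. *Klf2* was at 6.77 and 6.22 RPKM in WT and 4.38 and 4.61 RPKM in KO of day 3. These 4 libraries did not overlap, but the adjusted p was 0.15. At day 9, 1 of 10 factors was called, against 27.2% of all genes. This was *Prdm14*, at 1.02 and 1.01 RPKM in WT and 1.33 and 1.45 RPKM in KO, a difference of 0.42 ± 0.15 (adjusted p = 0.037). *Nanog* at day 9 was at 23.8 and 25.7 RPKM in WT and 27.1 and 31.2 RPKM in KO, with a difference of 0.23 ± 0.12 that was not called (adjusted p = 0.16). Without a call, the KO libraries of day 9 lay below the WT libraries for *Klf2*, *Klf4*, *Klf5*, *Esrrb*, *Tfcp2l1* and *Tcl1*, and above them for *Zfp42*. For *Tbx3* they overlapped. How many of all genes separated in this way was not counted, so nothing is drawn from it. With only the groups compared in the fit, more factors were called at day 9, beside 36.5% of all genes. Over the mean of days 3 and 9, 1 factor was called (30.7% of all genes), *Tcl1*, lower in the KO (-0.30 ± 0.09, adjusted p = 0.012). The call of day 9 was lost without any of the 4 libraries of that day, and that over days 3 and 9 without the second KO library of day 3 or the second WT library of day 9. Without either KO library of day 11, which share in the estimate of the spread, 1 factor was called at day 3, 3 at day 9 and 2 over days 3 and 9, and 2 were called over days 3 and 9 without either WT library of day 17.

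Within a genotype most of the factors rose between day 0 and day 9. In WT 7 of 10 were called, all higher (7.75% of all genes were called higher and 7.26% lower), and in KO 6 of 10, all higher (18.1% of all genes were called higher and 12.8% lower). *Klf4*, which is induced by STAT3, rose in WT from 4.43 and 3.90 RPKM to 8.09 and 8.82 RPKM, a change of 1.01 ± 0.21 (adjusted p = 0.0029). In KO *Klf4* went from 4.02 and 4.33 RPKM to 6.11 and 6.595 RPKM, a change of 0.59 ± 0.21 (adjusted p = 0.033). *Prdm14* rose by 0.63 ± 0.15 in WT and 1.18 ± 0.15 in KO. *Zfp42* moved by 0.08 ± 0.08 in WT and 0.09 ± 0.08 in KO, and was called in neither. In WT 3 factors were called without the first library of day 0 and 2 without the second of day 9, and in KO 3 were called without the first library of day 0 or the second of day 9. With no term for the third pair of day 1, which then enters the estimate of the spread, none of these calls was left in either genotype, and 0.0947% of all genes were called in WT and 3.7% in KO.

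At day 6 3 of 10 factors were called as labelled (27.1% of all genes), with *Nanog* at 29.6 and 31.3 RPKM in the libraries labelled WT and 18.6 and 20.03 RPKM in those labelled KO. *Prdm14* was at 1.22 and 1.46 RPKM under the WT label and 0.892 and 0.753 RPKM under the KO label. *Tcl1* was at 5.70 and 6.42 RPKM against 5.30 and 4.22 RPKM. For each of these genes the 4 libraries separated by label without overlap.

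At day 11 1 factor was called, lower in the KO, where 22.7% of all genes were higher and 12.3% lower. *Tcl1* was at 17.6 and 19.1 RPKM in WT and 14.2 and 11.4 RPKM in KO, lower in the KO (-0.52 ± 0.12, adjusted p = 0.0021). *Nanog* was at 161 and 157 RPKM in WT and 225 and 166 RPKM in KO, with a difference of 0.28 ± 0.12 (adjusted p = 0.073). The KO libraries of this day stood far apart from each other. *Klf5*, *Klf4* and *Tbx3* were at 12.4, 4.64 and 1.84 RPKM in the first and 22.7, 9.42 and 4.29 RPKM in the second. Without the second KO library 7 factors were called, among them *Nanog*, higher by 0.50, and *Klf5*, *Klf4* and *Tbx3*, lower (-0.89, -0.90 and -0.94). Without the first, 3 were called: *Klf2* was higher, and *Tcl1* and *Zfp42* were lower. There were 2 called without the second KO library of day 1 or without either WT library of day 0.

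At day 17, 7 of the 10 factors were called higher in the KO and none was called lower. Of all genes 40.2% were called, 28.9% higher and 11.4% lower. The median difference of the 10 factors was 0.57, beside 0.09 over all genes tested. Under centring of each library on its median, which moved that median of all genes to -0.09 and the share of higher genes among those called from 71.8% to 40.6%, these 7 kept their direction and their calls. With no term for the third pair of day 1, 3 factors were called at this day (*Klf2*, *Prdm14* and *Tcl1*), and the share called over all genes was 10.4%.

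*Nanog*, a homeodomain protein, was at 69.9 and 67.4 RPKM in WT and 158 and 169 RPKM in KO of day 17, 2.38-fold higher (95% interval 2.01 to 2.83, adjusted p = 1.97e-08). *Prdm14*, a PR-domain repressor, was at 0.948 and 1.27 RPKM in WT and 2.56 and 2.79 RPKM in KO, a difference of 1.21 ± 0.15 (adjusted p = 6.01e-07). In both cases each KO library exceeded each WT library by a wide margin. *Klf2* was at 2.45 and 3.76 RPKM in WT and 5.35 and 5.44 RPKM in KO, a difference of 0.81 ± 0.22 (adjusted p = 0.0059). The WT libraries differed more from each other than the KO libraries did, but did not reach them. *Tcl1* (0.65 ± 0.12), *Tfcp2l1* (0.59 ± 0.12), *Esrrb* (0.54 ± 0.11) and *Zfp42* (0.42 ± 0.08) were the others called. *Tbx3*, a T-box factor, was at 0.806 and 1.56 RPKM in WT and 1.98 and 1.47 RPKM in KO, and was not called (0.56 ± 0.26, adjusted p = 0.099). *Klf4* and *Klf5* had differences of -0.22 ± 0.21 and -0.26 ± 0.22, with libraries that overlapped. Over the mean of days 11 and 17, 4 factors were called, all higher (47.2% of all genes called), namely *Nanog*, *Prdm14*, *Klf2* and *Zfp42*, and *Zfp42* lost its call and its sign under median centring (-0.01).

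At day 25, the last day, 5 factors were called higher in the KO and 1 was called lower. Of all genes 65.4% were called, 39.4% higher and 25.9% lower, so the number of factors called (6 of 10) lay near the background. The median of the 10 factors was 0.41, beside 0.13 over all genes.

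*Nanog* was at 30.7 and 32.7 RPKM in WT and 155 and 144 RPKM in KO of day 25, 4.70-fold higher (95% interval 3.96 to 5.58, adjusted p = 1.28e-12). *Prdm14* was at 0.636 and 0.546 RPKM in WT and 2.77 and 2.47 RPKM in KO, 3.93-fold higher (3.19 to 4.85, adjusted p = 2.61e-10). *Tcl1* was at 1.197 and 1.272 RPKM in WT and 5.22 and 5.07 RPKM in KO, also 3.93-fold higher (3.30 to 4.68, adjusted p = 1.43e-11). For these genes the KO libraries lay far above the WT libraries, and replicates lay close together.

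*Zfp42* was at 14.8 and 15.03 RPKM in WT and 27.7 and 27.3 RPKM in KO, a difference of 0.88 ± 0.08 (adjusted p = 6.85e-09). *Esrrb* was at 14.7 and 14.3 RPKM in WT and 22.1 and 20.1 RPKM in KO, a difference of 0.54 ± 0.11 (adjusted p = 0.00027). For both genes the libraries separated without overlap. *Tfcp2l1*, a CP2-family factor of the LIF pathway, was at 14.1 and 12.98 RPKM in WT and 16.4 and 16.4 RPKM in KO. Its difference of 0.28 ± 0.12 fell short of the call (adjusted p = 0.054).

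*Klf5* was the factor called lower in the KO at day 25. It was at 28.5 and 26.5 RPKM in WT and 12.7 and 10.9 RPKM in KO, 2.33-fold lower (1.69 to 3.205, adjusted p = 6.56e-05). The other Krüppel-like members were not called. *Klf2* was at 4.94 and 4.99 RPKM in WT and 4.28 and 4.15 RPKM in KO, with an interval of the ratio from 0.618 to 1.17. *Klf4* was at 7.03 and 6.396 RPKM in WT and 7.32 and 6.505 RPKM in KO, with an interval from 0.764 to 1.39, and its libraries overlapped. *Tbx3* was at 4.62 and 4.14 RPKM in WT and 3.19 and 3.30 RPKM in KO (-0.42 ± 0.26, adjusted p = 0.17). The libraries of *Klf2* and *Tbx3* did not overlap, but their differences lay within the spread that the fit gives for these genes.

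Scaling each library to the same sum over genes (TPM) moved the median of all genes at day 25 from 0.13 to -0.21, and the share of higher genes among those called from 60.3% to 28.8%. On that scale *Nanog*, *Prdm14*, *Tcl1* and *Zfp42* stayed higher (1.89, 1.77, 1.70 and 0.53) and *Klf5* stayed lower (-1.57), all still called. *Esrrb* lost its call (0.19), *Tbx3* gained one as lower (-0.77), and *Tfcp2l1* and *Klf4* changed sign without a call (-0.07 and -0.31). The level of *Klf2* on that scale was 32.0 in WT and 21.3 in KO (means of 2 libraries). With no term for the third pair of day 1, 3 factors were called at day 25 (*Nanog*, *Prdm14* and *Tcl1*), and the share called over all genes was 20.9%.

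**Figure D2:**
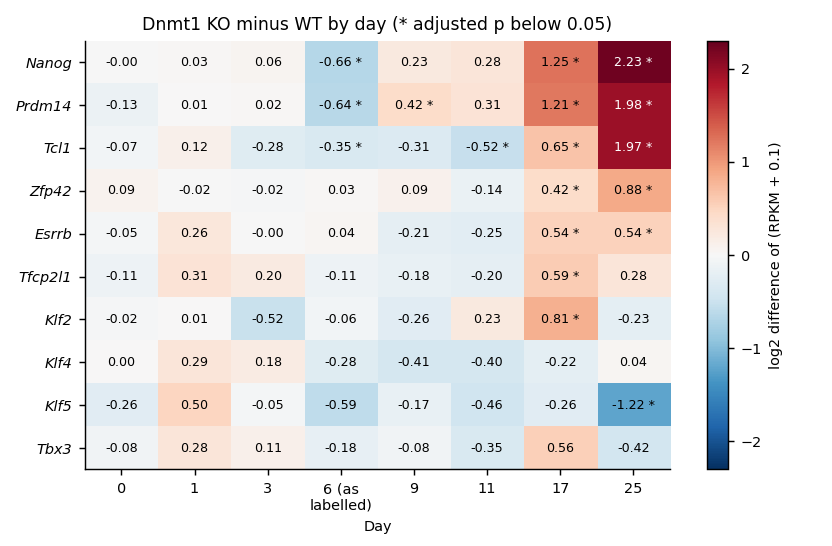
Difference KO minus WT of log2(RPKM + 0.1) for each naive factor (rows) and labelled day (columns), printed in each cell, with an asterisk where the adjusted p over all genes was below 0.05. The cells of days 0 and 3 hold no asterisk, day 17 holds 7 and day 25 holds 6, with *Nanog* at 1.25 and 2.23 and *Klf5* at -0.26 and -1.22, and day 6 is shown as labelled.

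The difference between the genotypes changed from day to day, as tested by the interaction of genotype and day. Between days 25 and 9 the difference changed for 7 factors (48.2% of all genes), between days 25 and 11 for 7 (56.6%) and between days 25 and 17 for 7 (54.4%). From day 17 to day 25 the difference grew by 0.98 ± 0.17 for *Nanog*, 0.76 ± 0.21 for *Prdm14*, 1.33 ± 0.17 for *Tcl1* and 0.45 ± 0.11 for *Zfp42*. It fell for *Klf2* (-1.04 ± 0.32), *Klf5* (-0.95 ± 0.32) and *Tbx3* (-0.98 ± 0.37). For *Esrrb* the change was 0.00 ± 0.16. Without the first WT library of day 17 the number of factors changed between days 25 and 17 was 4.

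The changes within each genotype were taken from day 11 to day 25. In WT 6 of 10 factors were called lower and none higher, while 33.2% of all genes were called lower and 34.7% higher. *Tcl1* fell by 3.79 ± 0.12, *Nanog* by 2.32 ± 0.12 and *Prdm14* by 1.93 ± 0.15, all with an adjusted p of 1.82e-10 or less. *Tfcp2l1* fell by 1.01 ± 0.12, *Esrrb* by 0.95 ± 0.11 and *Zfp42* by 0.69 ± 0.08. In the KO 4 factors were called over the same days (53.0% of all genes). *Tcl1* fell by 1.29 ± 0.12, *Tfcp2l1* by 0.53 ± 0.12 and *Nanog* by 0.37 ± 0.12 (adjusted p = 0.013), while *Zfp42* rose by 0.33 ± 0.08. With 1 library left out at a time, the change of *Nanog* in KO ranged from -0.59 to -0.15. *Prdm14* in KO had a change of -0.26 ± 0.15 that was not called. *Nanog* in the KO thus went from 225 and 166 RPKM to 155 and 144 RPKM, and in WT from 161 and 157 RPKM to 30.7 and 32.7 RPKM. *Klf2*, *Klf4*, *Klf5* and *Tbx3* were called in neither genotype. Leaving out the first KO library of day 11 gave *Klf4* a call in KO and turned its direction, from 0.06 to -0.44, and 7 factors were then called in KO.

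**Figure D3:**
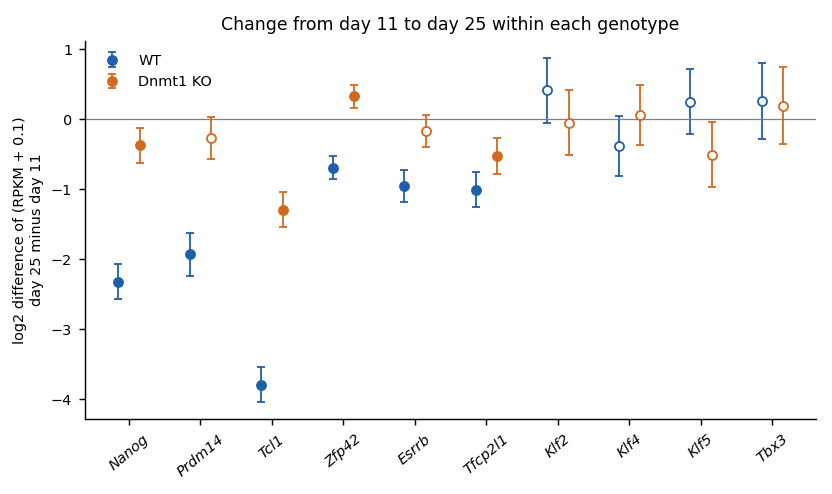
Change from day 11 to day 25 in log2(RPKM + 0.1) for each naive factor, WT in blue and *Dnmt1* KO in orange, with 95% intervals from the limma fit and filled points where the adjusted p was below 0.05. *Nanog* fell by 2.32 in WT and 0.37 in KO, *Tcl1* by 3.79 and 1.29, and the points of *Klf2*, *Klf4*, *Klf5* and *Tbx3* are open in both.

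The factors were also compared with each other by their differences over libraries, which the choice by name did not use. Over 30 libraries (day 6 left out), each taken as its log2 difference from the WT mean of its day and set, *Nanog* and *Prdm14* had a Pearson r of 0.97, *Nanog* and *Zfp42* 0.94, *Zfp42* and *Tcl1* 0.94 and *Esrrb* and *Tfcp2l1* 0.90. *Klf5* ran the other way from *Nanog* (-0.71) and *Zfp42* (-0.69). *Tbx3* went with *Tfcp2l1* (0.70) and *Klf5* (0.68). These values describe libraries that share days and WT references. Among all other genes tested, those most like *Nanog* by the same measure were *Slco4c1* (0.98), *A4galt* (0.98) and *Idh1* (0.98). The most like *Zfp42* was *Yes1* (0.97), a kinase of the SRC family. *Esrrb* was nearest to *Tpd52* (0.93), *Tcl1* to *Itfg1* (0.97), *Prdm14* to *Slco4c1* (0.97), *Tfcp2l1* to *Cpt1a* (0.91), *Klf2* to *Dicer1* (0.91), *Klf4* to *Fblim1* (0.88), *Klf5* to *A630007B06Rik* (0.94) and *Tbx3* to *Zfp704* (0.94).

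**Figure D4:**
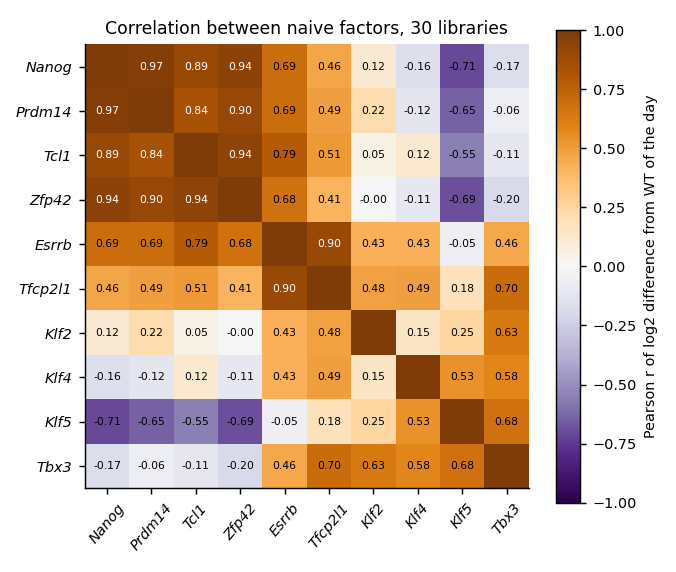
Pearson r between each pair of naive factors over 30 libraries, each library taken as its log2 difference from the WT mean of the same day and library set. *Nanog*, *Prdm14*, *Tcl1* and *Zfp42* form a block with r of 0.84 to 0.97, and *Klf5* has negative r with each of them, down to -0.71 with *Nanog*.

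The genes around the factors were counted by list at day 25. Of 22 other naive-state genes tested, 12 were higher, 6 lower and 4 not called, with a median of 0.36 beside 0.13 over all genes. The shares called over all genes at this day, 39.4% higher and 25.9% lower, hold for each list that follows. *Fbxo15*, a target gene of OCT4 and SOX2, was higher by 2.44 ± 0.11 and *Pecam1*, an adhesion protein of the inner cell mass, by 2.22 ± 0.10, whereas *Myc* was lower (-2.41 ± 0.32). Of the 16 core pluripotency genes 6 were higher and 7 lower (median 0.12), with *Sall4* lower (-1.56 ± 0.25). *Fbxo15* is on this list as well. Some lists share genes, so their counts are not independent. *Sox2* was higher by 0.35 ± 0.07 and *Pou5f1* by 0.26 ± 0.10. At day 17 *Sox2* was higher by 0.27 ± 0.07 but *Pou5f1* was lower (-0.50 ± 0.10). Of the 16 core genes 4 were then higher and 6 lower, and of 8 ESC markers 1 was higher and 4 lower. Over all genes 28.9% were higher and 11.4% lower at that day. At days 3, 9 and 11 none of these 8 markers was higher, and 3, 4 and 3 were lower. Of all 11615 genes tested 442, 1220 and 1430 were lower at these days.

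The pathways upstream of the factors were counted in the same way at day 25. Of 18 LIF, JAK and STAT3 genes tested, 7 were higher and 6 lower (median 0.05), with the STAT3 target *Pim1* lower (-1.26 ± 0.10) and *Jak2* higher by 0.88 ± 0.14. Of 17 WNT, GSK3 and TCF genes, 3 were higher and 11 lower (median -0.34). *Lef1*, a TCF family factor, was lower (-2.85 ± 0.19), *Tcf7l1*, the repressor of several naive factors, lower (-2.20 ± 0.29), and *Gsk3b* lower (-1.26 ± 0.17). Of 19 AKT and PI3K genes, the pathway of TCL1, 5 were higher and 11 lower (median -0.26), with *Tsc2* lower (-1.88 ± 0.22) and *Foxo1* lower (-1.78 ± 0.21). Of 11 other Krüppel-like factors 1 was higher (*Klf10*, by 0.73 ± 0.07) and 5 lower (median -0.42), with *Klf16* lower (-1.10 ± 0.16).

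These calls include changes on the WT side. From day 11 to day 25 *Tcf7l1* rose by 1.86 ± 0.29 in WT and fell by 0.93 ± 0.29 in KO, and *Lef1* rose by 4.07 ± 0.19 in WT, with a change of 0.45 ± 0.19 in KO that was not called. At day 17 the WNT list held 5 higher and 1 lower of 17, and the AKT list 8 higher and 2 lower of 19, where 28.9% of all genes were higher and 11.4% lower.

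Genes of the formative and primed epiblast, the state that follows the naive one, were counted at the late days and at days 3 and 9. At day 11 3 of 8 tested were higher and 2 lower (median 0.43, with 22.7% of all genes higher and 12.3% lower). At day 17 7 were lower, none higher and 1 not called (median -0.76, with 11.4% of all genes lower), and at day 25 6 were lower, none higher and 2 not called (median -0.94, with 25.9% of all genes lower). *Dnmt3b* was lower (-1.17 ± 0.15) and *Pou3f1* (OCT6) lower (-0.79 ± 0.14) at day 25. In WT *Dnmt3b* rose by 1.78 ± 0.15 from day 11 to day 25. The summed level of the 10 listed genes was 76.5 and 77.4 RPKM in WT and 39.97 and 40.99 RPKM in KO of day 25. Of this sum *Dnmt3b* held 47.0 RPKM in WT and 20.9 RPKM in KO (means of 2 libraries). Earlier, at day 3, 3 of the 8 were lower and none higher (median -0.36, with 3.81% of all genes lower). At day 9 1 was lower and none higher (median -0.06, with 1220 of 11615 genes lower).

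Markers of other cells moved with some of these results. The summed level of 8 trophoblast markers was 61.1 and 71.6 RPKM in WT and 298 and 307 RPKM in KO of day 17. Most of this sum was *Krt8* and *Krt18*, with means of 30.3 and 33.0 RPKM in WT and 148 and 141 RPKM in KO. At that day 6 of 6 tested were higher, beside 28.9% of all genes. At day 25 the sum was 44.5 and 45.4 RPKM in WT and 47.6 and 50.1 RPKM in KO, with 2 of 6 higher. The sum at day 11 was 37.1 and 38.9 RPKM in WT and 117 and 145 RPKM in KO. There 5 of 6 were higher, beside 22.7% of all genes. The 6 listed 2-cell embryo genes summed to 0.00 and 0.0147 RPKM in WT and 11.4 and 12.7 RPKM in KO of day 17. At day 25 they summed to 0.0577 to 0.0794 RPKM in WT and 1.29 to 1.71 RPKM in KO. The 5 of them that were tested were called higher at both days. In WT of the high-share set they summed to at most 0.318 RPKM, so they passed the filter of 1 RPKM through other libraries. That count was thus in part set by the filter. Primitive endoderm markers were lower in 4 of 5 at day 25, and their sum was 14.5 to 15.9 RPKM in WT and 9.59 to 10.3 RPKM in KO. Their part in the differences of the naive factors was not tested. Fibroblast markers, which feeder cells would bring, summed to at most 2.84 RPKM in WT and 1.88 RPKM in KO libraries of the high-share set, to which days 11, 17 and 25 belong. In the low-share set they summed to 11.6 to 20.4 RPKM in WT and 6.35 to 48.4 RPKM in KO. At day 3 their sums were 11.6 and 13.5 RPKM in WT and 22.3 and 23.1 RPKM in KO. The day 9 sums were 17.21 and 20.4 RPKM in WT against 42.1 and 48.4 RPKM in KO, and 3 of 5 tested were higher at both days. Primitive endoderm markers were higher in 4 of 5 at day 9, with sums of 11.4 and 13.1 RPKM in WT and 20.8 and 21.2 RPKM in KO. Trophoblast markers were higher in 5 of 6 at days 3 and 9, with sums of 26.7 and 30.4 RPKM in WT and 49.3 and 53.7 RPKM in KO of day 3. Over all genes 7.4% were higher at day 3, and 1940 of 11615 at day 9. The part of these markers in the values of days 3 and 9 was not tested.

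The *Dicer* KO library, a cell clone without the enzyme that matures miRNAs, was set beside the 7 WT libraries with a high share of gene reads, without a test. *Dicer1* itself was at 4.02 RPKM, within the 3.91 to 8.57 RPKM of those WT libraries, and a value over the whole gene does not check a CRISPR lesion. Of the 10 factors 2 were more than 1 log2 unit above all 7 (6.78% of all genes) and none was that far below all of them (3.74% of all genes). *Tfcp2l1* was at 65.7 RPKM (Poisson 95% interval 64.7 to 66.7, counting error only), against 9.64 to 29.5 RPKM in WT, and *Klf2* at 10.6 RPKM (9.74 to 11.6), against 2.45 to 4.99 RPKM. *Prdm14*, at 3.101 RPKM (2.69 to 3.56), was above the highest WT library, at 2.76 RPKM, but its interval reached below that value. *Nanog* (107 RPKM, WT 30.7 to 161 RPKM) and the other 6 factors lay within the WT range, *Tcl1* near its lower end at 1.92 RPKM (WT 1.197 to 19.1 RPKM). Fibroblast markers summed to 275 RPKM in this library, with *S100a4* at 245 RPKM. Trophoblast markers summed to 130 RPKM, with *Krt8* at 90.9 RPKM and *Krt18* at 32.7 RPKM. Of the ESC markers, *Lin28a* was at 0.443 RPKM, against 48.2 to 79.3 RPKM in the 7 WT libraries. *Pou5f1* was at 127.9 RPKM, below the 160.5 to 260.4 RPKM of those libraries. *Sox2*, at 59.6 RPKM, lay within their 44.1 to 84.6 RPKM. The sum of the 8 ESC markers, 989 RPKM, also lay within the WT range (798 to 1484.6 RPKM). The part of any of these markers in the levels of the factors was not tested. After centring each library on its median none of the factors passed 1 log2 unit.

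Transcripts of 6 factors aligned nowhere else in the genome over at least 200 bases at 90% identity. *Nanog* had 1 such place elsewhere, with 97.4% identity over 1320 bases, *Zfp42* 1 and *Klf5* 1, with 93.3% and 92.0%, and *Klf4* 3, with at most 747 bases in a single alignment. Since reads of low mapping quality were discarded by the authors, levels of these 4 genes may miss reads shared with such copies.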

How the data were processed

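Total RNA depleted of ribosomal RNA was measured in 35 ESC libraries. The authors trimmed reads with Trim Galore 0.3.5 and aligned them with TopHat2 2.0.11 to NCBIM37 (versions from the submitters' processing notes), discarded reads with a mapping quality below 20, and counted per gene in SeqMonk. The deposited values are RPKM on a linear scale, although the methods name log2 RPM. RPKM is not a count, so the fit was made on log2(RPKM + 0.1). The deposited columns were mapped to the labels by name.

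Genes above 1 RPKM in at least 2 of 34 libraries were tested (11615 of 26127 rows). limma 3.58.1 (R 4.3.3) was run with means per genotype and day and a term for the third pair of day 1. The *Dicer* KO library entered no test. Reads were recovered from RPKM and exon lengths, and 99.5% to 99.7% of low values per library came out whole to within 0.1 reads. They serve for depth, Poisson intervals of 95% and the voom alternative. Other alternatives were another pseudocount (1 or 0.01), no filter or one of 5 RPKM, median centring, TPM scale, other sets of libraries, a replicate block, robust moderation, and each library left out in turn. Copies were searched with minimap2 2.31-r1302.

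The factors, gene lists, tests and the rules for naming genes were chosen with earlier results of these data known. Named are the 10 factors, *Dnmt1* and *Dicer1* as label checks, genes of the lists among the 6 with the largest called difference at day 25, and the genes most like each factor. *Pou5f1*, *Sox2*, *Lin28a*, *Krt8*, *Krt18* and *S100a4* were named as markers.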

Additional observations from a re-analysis of the deposited data

Results flagged for a closer look

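The difference between *Dnmt1* KO and WT in the naive factors was not the same at all late and early days, as the interaction of genotype and day in the limma fit showed (values on the log2 scale, day 25 minus the earlier day). For *Nanog* it grew by 2.00 from day 9, 1.95 from day 11 and 0.98 from day 17. For *Prdm14* these values were 1.56, 1.67 and 0.76, for *Tcl1* 2.28, 2.50 and 1.33, and for *Zfp42* 0.78, 1.02 and 0.45. *Esrrb* changed by 0.75 from day 9 and 0.79 from day 11, and *Tfcp2l1* by 0.45 and 0.48. *Klf5* went the other way, by -1.05, -0.76 and -0.95. *Klf2* (-1.04) and *Tbx3* (-0.98) changed from day 17, where the first WT library held 2.45 and 0.806 RPKM of these genes and the second 3.76 and 1.56 RPKM. Day 9 belongs to the other set of libraries, so the contrast with day 9 and the library set cannot be told apart.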

How the results depend on the processing

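The lowest number of reads behind a value was 38, for *Prdm14*. Groups held 2 libraries (3 at day 1), with a spread estimated over all days. Numbers of factors called follow. With no term for that pair they were 0 at days 6, 9 and 11, 3 at days 17 and 25, 0 over days 3 and 9, 1 over days 11 and 17, 2, 2 and 1 for day 25 against days 9, 11 and 17, 1 for KO from day 11 to 25, and 0 from day 0 to 9 in either genotype. That pair then enters the estimate of the spread, and the genes called among all 11615 fell as well, from 4066 to 653 at day 11, 4671 to 1204 at day 17, 7591 to 2430 at day 25, 3143 to 330 at day 6 and 3160 to 382 at day 9. They fell from 3561 to 566 over days 3 and 9, from 5479 to 1601 over days 11 and 17, from 5600, 6579 and 6320 to 842, 1672 and 1322 for day 25 against days 9, 11 and 17, from 6161 to 1245 for KO from day 11 to 25, and from day 0 to 9 from 1743 to 11 in WT and 3580 to 430 in KO. With only the groups compared they were 2 at day 3, 6 at day 9, 0 at day 11, 5 over days 3 and 9, 2 over days 11 and 17, and 1 for KO from day 11 to 25, and among all genes 2153, 4240, 311, 5184, 2942 and 1622. With only days of the same library set they were 1 at days 1 and 3, 5 at day 6, 3 at day 9, 2 over days 3 and 9 and over days 11 and 17, and 4 for day 25 against day 17, and among all genes 252 at day 1, 2680 at day 3, 4914 at days 6 and 9, 5274 over days 3 and 9, 3733 over days 11 and 17 and 4223 for day 25 against day 17. At day 11 there were 6 after median centring and 2 on the TPM scale, with a pseudocount of 1 or with voom. Over days 3 and 9 there were 2 after median centring or with voom. At day 9 there were 0 with no filter. With a filter of 5 RPKM there were also 0, but *Prdm14*, the factor called at this day, and *Tbx3* do not reach that level and were not tested. *Zfp42* over days 11 and 17 turned to -0.0082 after median centring, and *Klf4* in KO from day 11 to 25 ranged from -0.44 without the first KO library of day 11 to 0.56 without the second. The cause was not tested.

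Leaving out 1 library at a time gave 0 to 0 at days 0 and 1, 0 to 1 at day 3, 2 to 4 at day 6, 0 to 3 at day 9, 1 to 7 at day 11, 6 to 8 at day 17 and 6 to 7 at day 25. It gave 0 to 2 over days 3 and 9 and 3 to 6 over days 11 and 17. For day 25 against days 9, 11 and 17 it gave 6 to 7, 5 to 7 and 4 to 8. Within a genotype it gave 6 to 8 (WT) and 3 to 7 (KO) from day 11 to 25, and 2 to 8 and 3 to 8 from day 0 to 9. Where it left a group with 1 library, that library was assumed to vary like the other groups.

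The replicate numbers were not taken to pair the libraries, since deviations of same-numbered libraries correlated from -0.16 to 0.26 on days with 2 pairs. On day 1, where the third pair is of the other library set, they correlated from 0.78 to 0.91. With a replicate block 0 factors were called at day 9, 7 at day 25 and 2 over days 3 and 9, and the direction of no called factor changed. Against the 7 WT libraries of its own set the *Dicer* KO library had 1 factor past 1 log2 unit with a pseudocount of 1 and 0 after median centring. It had 7 against WT of day 0 and 1 against all 17 WT libraries, but WT of day 0 and 10 of the 17 are of the low-share set, so that these counts and the library set cannot be told apart.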
